A study of Mus musculus with 12 samples.

Results

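A set of 10 genes of bile acid synthesis and of the bile acid receptor FXR was followed in mouse hepatocytes next to liver tumours and in livers after thioacetamide injury. The 10 genes were picked by symbol, all 10 were found among the 41128 genes of the deposited count table, and all 10 passed the filter on low counts in every comparison. The tumour experiment had 3 libraries of peritumoral hepatocytes and 3 of untreated hepatocytes, both from mice with the genotype Lats1tm1.1Jfm/RjoJ; Lats2tm1.1Jfm/RjoJ. These carry conditional alleles of the Hippo pathway kinases Lats1 and Lats2, the sample titles call them WT, and no label used here gives a Cre. To start tumours, the mice were injected hydrodynamically with 1 µg of SB11, a transposase, 20 µg of myc-NICD and 4 µg of myr-ha-Akt, and the tumours grew for 8 weeks. The injury experiment had 2 libraries each from livers taken 24 h and 48 h after 1 intraperitoneal dose of thioacetamide (TAA), a hepatotoxin, and 2 from control livers, all from CD-1 IGS mice of Charles River. All labels give an age of 8 weeks, and the tumour mice were injected at 8 weeks, so their age at collection against the untreated mice cannot be read from the labels. The labels describe every library as Percoll-purified hepatocytes, while the series design describes the TAA libraries as livers. Whether each library is a different animal is not labelled, so the p-values below measure the spread between libraries.

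Bile acids are made from cholesterol in hepatocytes by 2 routes. In the classic route CYP7A1 adds the first hydroxyl group and sets the rate, and CYP8B1 then directs the product to cholic acid. In the acidic route CYP27A1 hydroxylates the side chain and CYP7B1 follows. AKR1D1 reduces the sterol ring, ACOX2 shortens the side chain in peroxisomes, SLC27A5 activates the acid with coenzyme A and BAAT joins it to taurine or glycine. Bile acids bind the nuclear receptor FXR, encoded by Nr1h4, which induces the repressor SHP, encoded by Nr0b2, and SHP in turn lowers transcription of Cyp7a1 and Cyp8b1. Cyp7a1 follows a daily rhythm in mouse liver, and Cyp7b1 is more abundant in male than in female mice.

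The promoters of Cyp8b1 and Nr0b2 are shown because Cyp8b1 had the lowest log2 fold change of the 10 genes in either experiment and Nr0b2 encodes the repressor of the route. Both are the 250 bases before the RefSeq start site on GRCm38.p6, Cyp8b1 from the minus strand at chr9:121916306-121916555 and Nr0b2 from the plus strand at chr4:133553126-133553375. Capitals mark matches to the motifs searched on both strands, which were CAAAGTCCA (HNF4A), CAAGGNCA (NR5A2, also called LRH-1), AGGTCA (bound by many nuclear receptors), the FXR inverted repeat and TATAAA (the core promoter box bound by TBP).
Cyp8b1: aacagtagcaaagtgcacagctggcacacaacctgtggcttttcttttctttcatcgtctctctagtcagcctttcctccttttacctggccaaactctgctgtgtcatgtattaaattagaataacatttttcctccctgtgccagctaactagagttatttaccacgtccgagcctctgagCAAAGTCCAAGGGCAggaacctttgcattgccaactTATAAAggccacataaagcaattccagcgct
Nr0b2: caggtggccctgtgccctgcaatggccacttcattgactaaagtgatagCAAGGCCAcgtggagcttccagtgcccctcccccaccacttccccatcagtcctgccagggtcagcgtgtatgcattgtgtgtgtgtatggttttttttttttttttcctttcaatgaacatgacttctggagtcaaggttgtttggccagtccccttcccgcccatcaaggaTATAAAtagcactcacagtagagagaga
In Cyp8b1 the capitals CAAAGTCCA, at -67 to -59 from the start site, run into a match to CAAGGNCA, at -60 to -53, and a TATAAA stands at -31 to -26. In Nr0b2 a match to CAAGGNCA stands at -201 to -194 and a TATAAA at -28 to -23. RefSeq promoters were matched for 6 of the 10 genes (Cyp8b1, Cyp27a1, Akr1d1, Acox2, Nr1h4 and Nr0b2). There were 2 AGGTCA matches in Akr1d1 and 1 in Nr1h4, all on the strand opposite to the gene, and no motif of the 5 was matched in the windows of Cyp27a1 or Acox2. Over 32526 mouse promoters of the same length, 5.54% held CAAGGNCA, 0.387% CAAAGTCCA, 14.0% AGGTCA, 12.3% TATAAA and 0.2% the FXR inverted repeat. The matches describe letters and no binding was measured.

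Hepatocyte libraries held 16228747 to 18522324 counts and liver libraries 9640845 to 13692235 counts. Levels are given as CPM, counts relative to library size scaled with TMM factors, a trimmed-mean correction for library composition, which lay between 0.750 and 1.31. In livers the factors differed by group, at 0.757 and 0.750 in controls, 1.09 and 1.06 at 24 h and 1.26 and 1.21 at 48 h. This scaling thus lowers TAA levels relative to controls. All 28 hepatocyte markers matched were detected in every library, with summed levels of 108343 to 184745 RPM, counts relative to the library total, in peritumoral and 143623 to 155356 RPM in untreated hepatocytes. In livers the same sum was 216372 to 218252 RPM at 24 h, 170736 to 182376 RPM at 48 h and 236551 to 244409 RPM in controls. Untreated library 3 and peritumoral library 2 stood apart within their groups. Per gene, the chi-square between untreated libraries 1 and 2 was 15.8, against 127 and 123 between library 3 and each of them. Peritumoral library 2 gave 217 and 195 against peritumoral libraries 1 and 3. Between peritumoral libraries 1 and 3 it was 87.9, so these were not close to each other either. Peritumoral library 2 had Xist, the transcript of the silenced X chromosome, at 405 CPM and the Y-linked Ddx3y at 0 CPM, whereas the other 5 hepatocyte libraries had Ddx3y at 59.8 to 77.5 CPM and Xist at no more than 0.182 CPM. All 6 liver libraries had Xist at 235 to 436 CPM and Ddx3y at 0 CPM. The experiments thus differed in mouse stock, in preparation as the series design describes it and, apart from peritumoral library 2, in sex transcripts. These cannot be told apart from the injury when effects are set side by side.

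On GRCm38 the genes lie apart from each other, Cyp7a1 at chr4:6265612-6275633 (minus strand), Cyp8b1 at chr9:121914356-121916305 (minus, 1 exon), Cyp27a1 at chr1:74713574-74737892 (plus), Cyp7b1 at chr3:18071950-18243338 (minus) and Baat at chr4:49489422-49506557 (minus). Slc27a5 lies at chr7:12988346-12998192 (minus), Akr1d1 at chr6:37530173-37568815 (plus), Acox2 at chr14:8225511-8259353 (minus), Nr1h4 at chr10:89454234-89533585 (minus) and Nr0b2 at chr4:133553376-133556536 (plus). No exon of the 10 overlaps an exon of another annotated gene. Relative to exon length, the 10 genes spanned a wide range of levels. In untreated hepatocytes the mean RPKM (RPM per kilobase of exon) was 195 for Cyp7b1, 162 for Slc27a5, 133 for Cyp27a1, 107 for Acox2, 103 for Baat, 80.2 for Cyp8b1, 53.9 for Nr0b2, 36.8 for Nr1h4, 25.6 for Akr1d1 and 7.39 for Cyp7a1. In control livers Slc27a5 led with 413 RPKM, ahead of Cyp8b1 (139.8), Cyp27a1 (131), Baat (130.2), Akr1d1 (93.6), Nr0b2 (69.0), Acox2 (57.7), Nr1h4 (40.1), Cyp7b1 (16.1) and Cyp7a1 (7.66). The rate-setting Cyp7a1 was thus the lowest of the 10 in both, and the place of Cyp7b1 was the main difference between the orders.

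**Figure D1:**
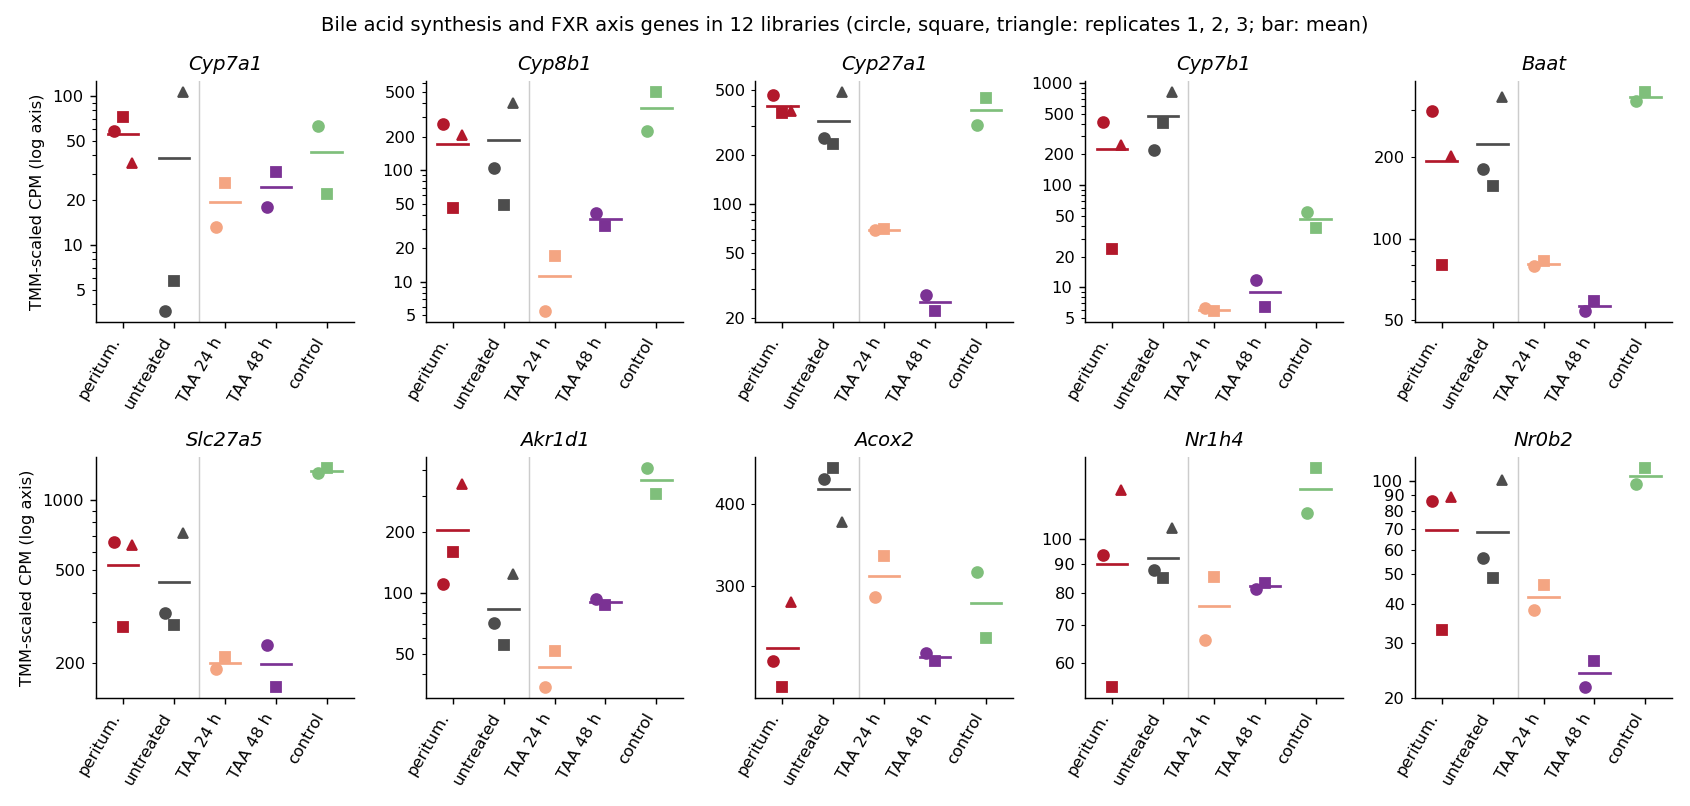
TMM-scaled CPM (log axis) of the 10 genes in each of the 12 libraries, by group, with the group mean as a bar; circles, squares and triangles are replicates 1, 2 and 3. In livers Cyp8b1 had 5.44 and 17.2 CPM at 24 h after TAA and 41.3 and 32.0 CPM at 48 h, against 223 and 503 CPM in controls, while Cyp7a1 in untreated hepatocytes was spread between 3.58 and 106 CPM.

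After TAA most of the genes were lower. At 24 h 8 of the 10 were lower and none higher at an adjusted p under 0.05 (edgeR's quasi-likelihood F test with Benjamini-Hochberg adjustment over all genes tested), where 20.7% of all 13497 genes tested were called lower and 21.1% higher. At 48 h again 8 of 10 were lower and none higher, against 24% of all genes lower and 25.1% higher. The same 8 genes passed at both times, and Cyp7a1 and Acox2 did not. The median log2 fold change over all 10 genes was -2.24 at 24 h and -2.23 at 48 h, against 0.02 and -0.03 over all genes tested. Hepatocyte markers were mostly lower too, though by less. Of 28 tested, 19 were lower and 1 higher at 24 h, and 22 were lower and none higher at 48 h. Their median log2 fold change was -0.84 at 24 h and -1.05 at 48 h. The levels of 8 genes at 24 h and 9 at 48 h lay wholly below the control levels, which held for 35.8% and 38.9% of all genes. No gene of the 10 lay wholly above the controls at either time, against 38.3% of all genes at 24 h and 37.5% at 48 h. These are bulk libraries, in which fewer hepatocytes and less RNA per hepatocyte cannot be told apart.

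In the classic route the sterol 12-alpha-hydroxylase Cyp8b1 fell and the rate-setting Cyp7a1 did not pass the test. Cyp8b1 had 5.44 and 17.2 CPM at 24 h and 41.3 and 32.0 CPM at 48 h, against 223 and 503 CPM in controls. All 4 TAA libraries lay far below both controls. The log2 fold change was -5.00 ± 0.64 (SE) at 24 h (adjusted p = 0.00165) and -3.31 ± 0.58 at 48 h (adjusted p = 0.00393). Cyp7a1 had 13.2 and 25.9 CPM at 24 h and 17.97 and 30.9 CPM at 48 h, against 62.7 and 22.0 CPM in controls, so the groups overlapped. Its log2 fold change was -1.11 (95% interval -2.38 to 0.16, adjusted p = 0.135) at 24 h and -0.79 (-2.04 to 0.47, adjusted p = 0.256) at 48 h. The Cyp7a1 result turned on which control was kept: without control 2 it was -1.69 (adjusted p = 0.0342) and -1.40 (0.0474), and without control 1 it was 0.12 (0.858) at 48 h.

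Both enzymes of the acidic route fell. Cyp27a1, the sterol 27-hydroxylase of mitochondria, had 69.1 and 70.5 CPM at 24 h and 27.8 and 21.9 CPM at 48 h, against 307 and 450.1 CPM in controls. The 3 groups were fully separated, with the lowest levels at 48 h. Its log2 fold change was -2.44 ± 0.22 at 24 h (adjusted p = 0.000632) and -3.93 ± 0.24 at 48 h (adjusted p = 0.000152). Cyp7b1, the oxysterol 7-alpha-hydroxylase, had 6.24 and 5.85 CPM at 24 h and 11.7 and 6.404 CPM at 48 h, against 54.3 and 38.1 CPM in controls. Again no TAA library reached a control level, and the log2 fold change was -2.93 ± 0.31 at 24 h (adjusted p = 0.000916) and -2.36 ± 0.30 at 48 h (adjusted p = 0.00111).

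Of the enzymes that modify the ring and side chain, 3 of 4 fell. Akr1d1, the 5-beta-reductase, had 34.5 and 51.5 CPM at 24 h and 93.6 and 87.0 CPM at 48 h, against 412 and 306 CPM in controls (log2 fold change -3.06 ± 0.25, adjusted p = 0.000535, and -1.99 ± 0.24, adjusted p = 0.000908). Its lowest levels were thus at 24 h, unlike those of Cyp27a1. Slc27a5, the bile acyl-CoA synthetase, had 189 and 211 CPM at 24 h and 238 and 158 CPM at 48 h, against 1297 and 1374 CPM in controls (-2.74 ± 0.23, adjusted p = 0.000548, and -2.75 ± 0.23, adjusted p = 0.000312). The 2 times overlapped for Slc27a5 and both were far below the controls. Baat, the conjugating transferase, had 79.3 and 82.9 CPM at 24 h and 54.0 and 59.2 CPM at 48 h, against 322 and 349 CPM in controls (-2.05 ± 0.14, adjusted p = 0.000363, and -2.57 ± 0.14, adjusted p = 0.00013). Acox2, the peroxisomal oxidase, had 289 and 334 CPM at 24 h and 238 and 231 CPM at 48 h, against 316 and 251 CPM in controls. It overlapped the controls at 24 h and lay just below both at 48 h, with log2 fold changes of 0.14 (95% interval -0.26 to 0.53, adjusted p = 0.537) and -0.27 (-0.67 to 0.12, adjusted p = 0.213).

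Of the receptor and the repressor it induces, Nr0b2 fell under each scaling tried, while Nr1h4 fell with TMM scaling but not when scaled to hepatocyte genes. Nr0b2, encoding SHP, had 38.4 and 46.2 CPM at 24 h and 21.7 and 26.3 CPM at 48 h, against 97.4 and 110.0 CPM in controls. The 3 groups were separated, and the log2 fold change was -1.29 ± 0.16 at 24 h (adjusted p = 0.00143) and -2.11 ± 0.16 at 48 h (adjusted p = 0.000278). Nr1h4, encoding FXR, had 66.0 and 85.5 CPM at 24 h and 81.5 and 83.3 CPM at 48 h, against 111 and 134 CPM in controls. The log2 fold change of Nr1h4 was -0.70 ± 0.17 (adjusted p = 0.0172) and -0.57 ± 0.17 (adjusted p = 0.0282). The Nr1h4 call depended on the scaling and on single libraries: scaled to hepatocyte genes it was 0.16 (adjusted p = 0.485) at 24 h and 0.64 (adjusted p = 0.012) at 48 h. It lost its call at 24 h without TAA 24 h library 1 (-0.52, adjusted p = 0.106) or control 2 (-0.57, 0.0648), and at 48 h without TAA 48 h library 1 (-0.56, 0.121), TAA 48 h library 2 (-0.59, 0.11) or control 2 (-0.48, 0.0875).

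Scaling each library to its hepatocyte genes, leaving out those of bile acid metabolism, left 7 of the 10 genes lower at both times, namely Cyp8b1, Cyp27a1, Cyp7b1, Akr1d1, Slc27a5, Baat and Nr0b2. Under it the log2 fold changes of these 7 ran between -4.15 (Cyp8b1) and -0.44 (Nr0b2, adjusted p = 0.0498) at 24 h and between -2.69 (Cyp27a1) and -0.78 (Akr1d1) at 48 h, while the median over all genes moved to 0.88 at 24 h and 1.18 at 48 h and the calls over all genes to 8235 higher and 713 lower at 24 h and 10174 higher and 422 lower at 48 h. Acox2 was called higher under that scaling, by 0.99 at 24 h (adjusted p = 0.00351) and 0.94 at 48 h (0.00327). In the fit of all 12 libraries Cyp7b1 did not pass at 24 h (adjusted p = 0.0752) or 48 h (0.113), nor did Nr0b2 at 24 h (0.0837).

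**Figure D2:**
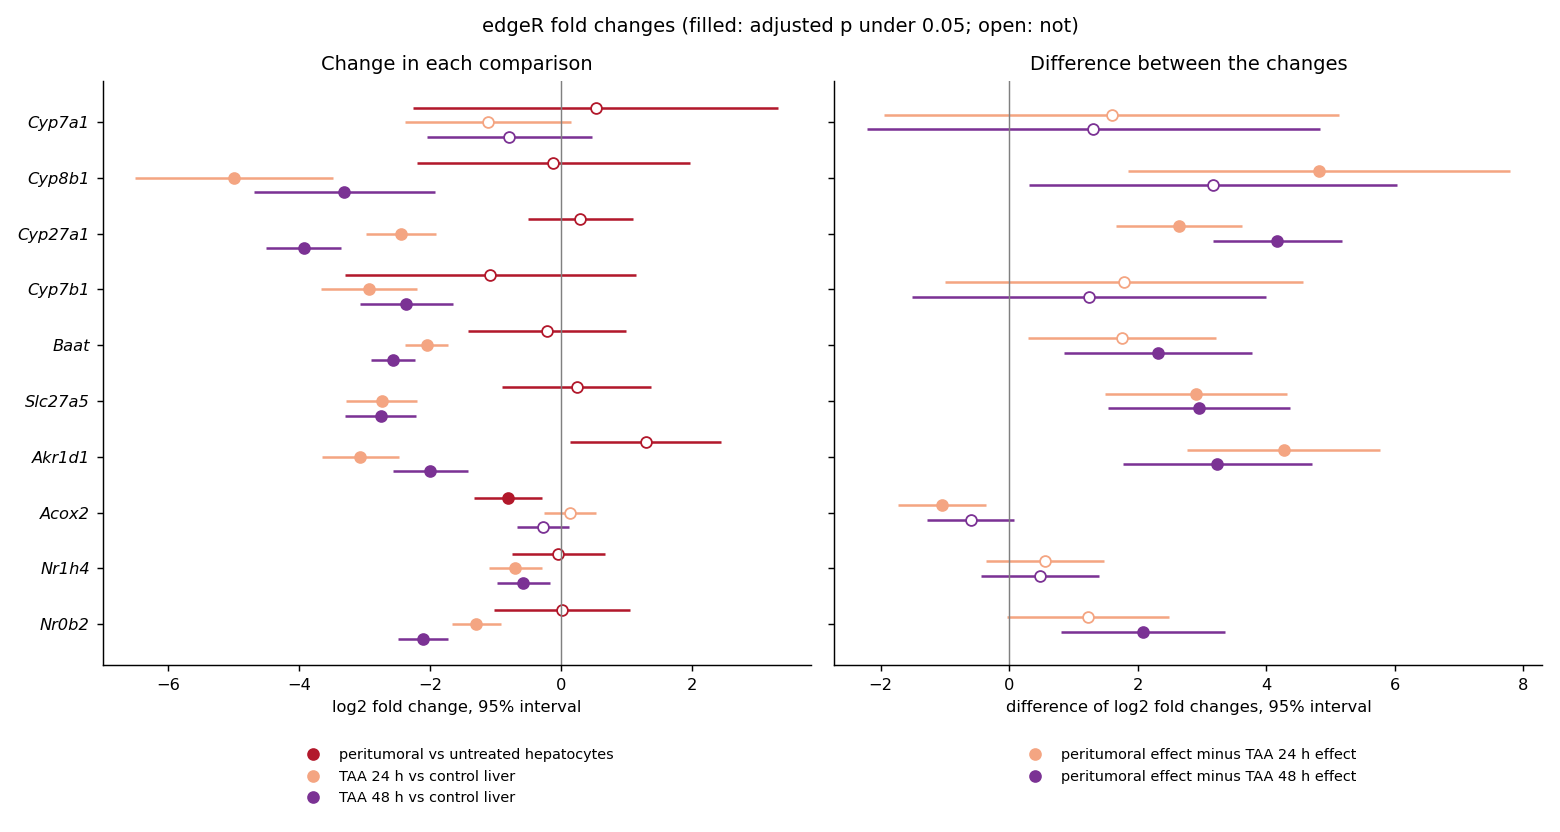
Left, log2 fold change with its 95% interval for the 10 genes in peritumoral over untreated hepatocytes and in TAA 24 h and 48 h over control livers; right, the difference between the peritumoral and the TAA change; filled points have an adjusted p under 0.05. In TAA livers 8 of 10 intervals at each time lie below 0 and are filled, from -5.00 for Cyp8b1 to -0.57 for Nr1h4, while in peritumoral hepatocytes Acox2 alone is filled, at -0.80.

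Between 24 h and 48 h 3 genes differed, where 5.02% of all genes were higher and 2.53% lower at 48 h. Cyp27a1 was lower at 48 h than at 24 h by a log2 fold change of -1.49 ± 0.22 (adjusted p = 0.0191) and Nr0b2 by -0.81 ± 0.16 (adjusted p = 0.0342), while Akr1d1 was higher by 1.07 ± 0.23 (adjusted p = 0.044). Cyp8b1 had the highest estimate, 1.69 ± 0.57, and did not pass (adjusted p = 0.114), although its 48 h levels of 41.3 and 32.0 CPM were above the 24 h levels of 5.44 and 17.2 CPM. The levels of 3 genes at 48 h lay wholly above and of 4 wholly below those at 24 h, which held for 32% and 30% of all genes. With 2 libraries a time, leaving out any 1 TAA library ended all 3 calls. Such a fit has 1 library in a group, and calls over all genes became fewer in it too. When any 1 liver library was left out, the estimate ran from -1.67 to -1.33 for Cyp27a1 and from -0.96 to -0.69 for Nr0b2. For Akr1d1 it ran from 0.80 to 1.355.

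Other genes of bile acid metabolism were also mostly lower after TAA. Of 13 further synthesis genes 8 were lower and 1 higher at each time. Named by the smallest p, Slc27a2, which activates very long chain fatty acids and bile acid precursors, averaged 222 ± 3.34 CPM at 24 h and 1507 ± 302 CPM in controls (SD, n = 2 each; log2 fold change -2.76, adjusted p = 0.000522). Hsd17b4 (-1.47), of peroxisomal side-chain oxidation, and Cyp2c70 (-1.33), which makes muricholic acids in mice, also fell at 24 h. At 48 h the named genes were Cyp2c70 (-1.74), Hsd3b7 (-2.37), the sterol dehydrogenase after Cyp7a1, and Akr1c6 (-2.26). The higher gene was Ch25h, the cholesterol 25-hydroxylase, named here after its values were seen, at 2.45 CPM at 24 h and 1.55 CPM at 48 h and 0.052 CPM in controls. Scaling to hepatocyte genes left 4 lower and 3 higher at 24 h and 2 lower and 5 higher at 48 h. Over all genes that scaling called 5.28% lower and 61.0% higher at 24 h, and 3.13% lower and 75.4% higher at 48 h.

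Of 13 bile acid and sterol transporters tested, 10 were lower and 1 higher at each time. Scaled to hepatocyte genes, 6 were lower and 2 higher at 24 h, and 4 lower and 3 higher at 48 h. The shares of all genes were then 5.28% lower and 61.0% higher at 24 h, and 3.13% lower and 75.4% higher at 48 h. The sinusoidal importer Slc10a1 (NTCP) had 60.8 and 78.1 CPM at 24 h and 181 and 109 CPM at 48 h, against 893 and 771 CPM in controls (log2 fold change -3.58, adjusted p = 0.000527, and -2.52, adjusted p = 0.000664). The canalicular export pump Abcb11 (BSEP) had 136 and 150.0 CPM at 24 h and 168 and 148 CPM at 48 h, against 798 and 754 CPM in controls (-2.44, adjusted p = 0.000319, and -2.30, adjusted p = 0.000201). The importer Slco1b2 fell by 2.52 and 2.36 on the log2 scale, and the sterol exporter subunit Abcg8 by 2.68 at 48 h (adjusted p = 0.000138). The higher genes, named after their values were seen, were the ileal-type importer Slc10a2 at 24 h (29.9 and 30.5 CPM, against 12.99 and 16.2 CPM in controls) and the basolateral exporter Abcc4 at 48 h (17.5 and 15.5 CPM, against 3.40 and 2.31 CPM in controls; log2 fold change 2.53, adjusted p = 0.000691). At 48 h Slc10a2 was among the lower genes. Between the times Abcg8 (-1.50, adjusted p = 0.00939) and Slc10a2 (-1.57, adjusted p = 0.00939) were lower and Abcc4 (1.86, adjusted p = 0.0158) higher at 48 h. The calls of Abcg8, Slc10a2 and Abcc4 were each lost without either TAA 24 h library. That of Slc10a2 was also lost without TAA 48 h library 1, and that of Abcc4 without TAA 48 h library 1 or 2. These fits have 1 library in a group, and calls over all genes became fewer in them too.

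Of 21 regulators tested, 13 were lower and 1 higher at 24 h, and 15 lower and 1 higher at 48 h, and between the times none passed (1 by DESeq2). Foxa2 (-1.91), Mafg (-1.07) and Cebpa (-1.10) had the smallest p at 24 h. At 48 h these were Cebpa (-1.48), Mafg (-1.02) and Nr1i3 (-2.74), encoding the receptor CAR, which had 51.8 and 40.1 CPM against 272 and 340.0 CPM in controls. Nr5a2 was lower with TMM scaling at 24 h (-0.56, adjusted p = 0.0165) and at 48 h (-0.84, adjusted p = 0.00278). Its motif letters are in the Cyp8b1 and Nr0b2 promoters printed above, and a part of Nr5a2 in their levels was not tested. Hnf4a, also with TMM scaling, was at -0.61 (adjusted p = 0.0792) at 24 h and -0.86 (adjusted p = 0.0228) at 48 h. Scaling to hepatocyte genes left 2 of the regulators lower and 5 higher at 24 h and 1 lower and 8 higher at 48 h. Under it 5.28% of all genes were called lower and 61.0% higher at 24 h, and 3.13% lower and 75.4% higher at 48 h.

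**Figure D3:**
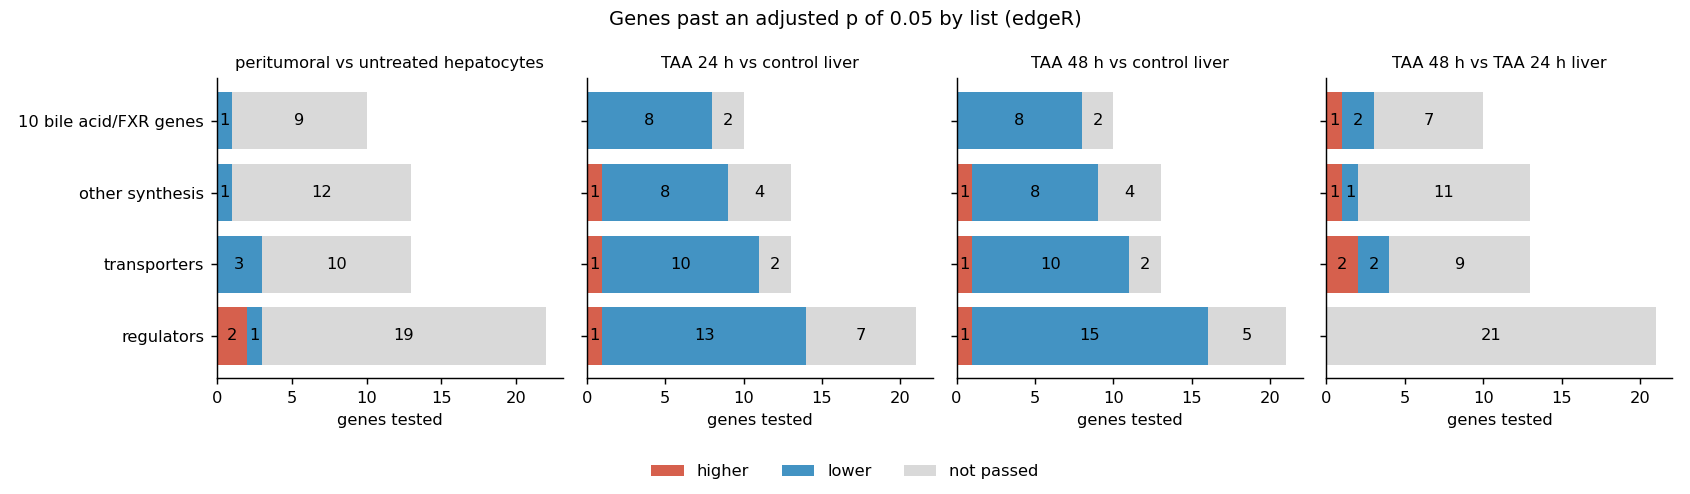
Genes called higher, called lower or not passed at an adjusted p of 0.05 (edgeR) among the 10 bile acid and FXR genes and the lists of other synthesis genes, transporters and regulators, in 4 comparisons. In TAA livers 8 of 10, 8 of 13, 10 of 13 and 13 of 21 genes were lower at 24 h, while in peritumoral hepatocytes 1 of 10, 1 of 13, 3 of 13 and 1 of 22 were lower.

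Markers of other cells moved with the injury. Of 20 macrophage markers tested 14 were higher at 24 h, and their sum was 594 to 777 RPM at 24 h and 1594 to 2434 RPM at 48 h, against 98.8 to 221 RPM in controls. Of 19 stellate cell markers 15 were higher at 24 h, with a sum of 894 to 925 RPM at 24 h and 2333 to 3038 RPM at 48 h, against 181 to 314 RPM in controls. No marker of either list was at 0 in a TAA library. TAA is activated by CYP2E1 and injures the hepatocytes around the central vein, and 11 of 16 pericentral markers were lower at 24 h. Their sum was 1259 to 1308 RPM at 24 h and 1095 to 1172 RPM at 48 h, against 5565 to 7457 RPM in controls. Cyp2e1 itself had 210.3 and 250.2 CPM at 24 h and 88.6 and 110.0 CPM at 48 h, against 4219 and 6474 CPM in controls. Of 17 periportal markers 13 were lower at 24 h. The part of these cells and zones in the fall of the bile acid genes was not tested.

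In peritumoral hepatocytes few of the 10 genes passed the test, which does not show that the others were unchanged. The log2 fold change had intervals of -2.26 to 3.32 for Cyp7a1, -2.20 to 1.97 for Cyp8b1 and -3.30 to 1.14 for Cyp7b1. Large changes in either direction thus remained possible for these genes. The interval was narrower for Nr1h4, at -0.74 to 0.67. No gene was higher and 1 was lower, against 18.7% of all 13442 genes called higher and 9.85% called lower. Scaled to hepatocyte genes, the calls over all genes were 2476 higher and 57 lower, against 2510 and 1324 with TMM. The median log2 fold change was -0.011 for the 10 genes and -0.021 for all genes. At an unadjusted p under 0.05 there were 2 genes, Acox2 and Akr1d1. DESeq2 called both, Akr1d1 higher (1.33, adjusted p = 0.026) and Acox2 lower (-0.79, adjusted p = 0.00153). Acox2 alone had all peritumoral levels below all untreated levels, against 24.5% of all genes, and none had all above, against 25%.

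The 1 gene called was the peroxisomal oxidase Acox2. It had 231, 211 and 284 CPM in peritumoral hepatocytes, against 437, 455 and 376 CPM in untreated hepatocytes. Its groups did not overlap, also with the libraries that stood apart, and the log2 fold change was -0.80 ± 0.22 (adjusted p = 0.0348). The estimate stayed between -0.95 and -0.68 when any 1 library was left out, but the adjusted p passed 0.05 in each case (up to 0.173) except without untreated library 3 (0.04). Scaled to hepatocyte genes it was -0.39 (adjusted p = 0.595). Akr1d1 went the other way, with 111, 159.7 and 341 CPM in peritumoral and 70.9, 55.5 and 123 CPM in untreated hepatocytes. The groups overlapped by untreated library 3 alone, and the log2 fold change of 1.29 ± 0.49 did not pass (adjusted p = 0.0905). It was highest in peritumoral library 3, without which it was 0.69 (adjusted p = 0.245).

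The enzymes of the classic and acidic routes overlapped between the groups. Cyp7a1 had 58.3, 72.7 and 35.4 CPM in peritumoral hepatocytes, against 3.58, 5.70 and 106 CPM in untreated hepatocytes. All 3 peritumoral libraries lay above untreated libraries 1 and 2 and below untreated library 3. The log2 fold change was 0.53 (95% interval -2.26 to 3.32, adjusted p = 0.767), and without untreated library 3 it was 3.57 (adjusted p = 0.0199). Cyp8b1 had 262, 46.3 and 207 CPM in peritumoral hepatocytes, against 106, 48.9 and 404 CPM in untreated hepatocytes (-0.11, 95% interval -2.20 to 1.97, adjusted p = 0.935). Its highest level was again in untreated library 3 and its lowest in peritumoral library 2. Cyp27a1 had 467, 361 and 371 CPM in peritumoral and 256, 232 and 488 CPM in untreated hepatocytes (0.30, -0.50 to 1.10, adjusted p = 0.546). Cyp7b1 had 412, 23.6 and 246 CPM in peritumoral hepatocytes, against 220, 403 and 816 CPM in untreated hepatocytes (-1.08, -3.30 to 1.14, adjusted p = 0.423). The low value was that of peritumoral library 2, the library with Xist and without Ddx3y. That library also had the lowest sum of hepatocyte markers, 108343 RPM, and the highest sum of biliary markers, 11256 RPM. A part of sex or of cell content in its Cyp7b1 level was not tested.

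The remaining genes overlapped as well. Baat had 298, 80.2 and 202 CPM in peritumoral and 182, 156 and 333 CPM in untreated hepatocytes (log2 fold change -0.21, adjusted p = 0.791). Slc27a5 had 660.2, 286 and 638 CPM in peritumoral and 327, 291 and 722 CPM in untreated hepatocytes (0.24, adjusted p = 0.74). Both were lowest in peritumoral library 2 and highest in untreated library 3, as was Nr0b2, which had 86.1, 33.2 and 88.4 CPM in peritumoral and 56.5, 48.7 and 100.1 CPM in untreated hepatocytes (0.02, 95% interval -1.02 to 1.05, adjusted p = 0.982). Nr1h4 had 93.6, 54.3 and 122 CPM in peritumoral hepatocytes, against 87.9, 84.9 and 104 CPM in untreated hepatocytes (-0.04, -0.74 to 0.67, adjusted p = 0.936). It was also lowest in peritumoral library 2, but its highest level was in peritumoral library 3.

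**Figure D4:**
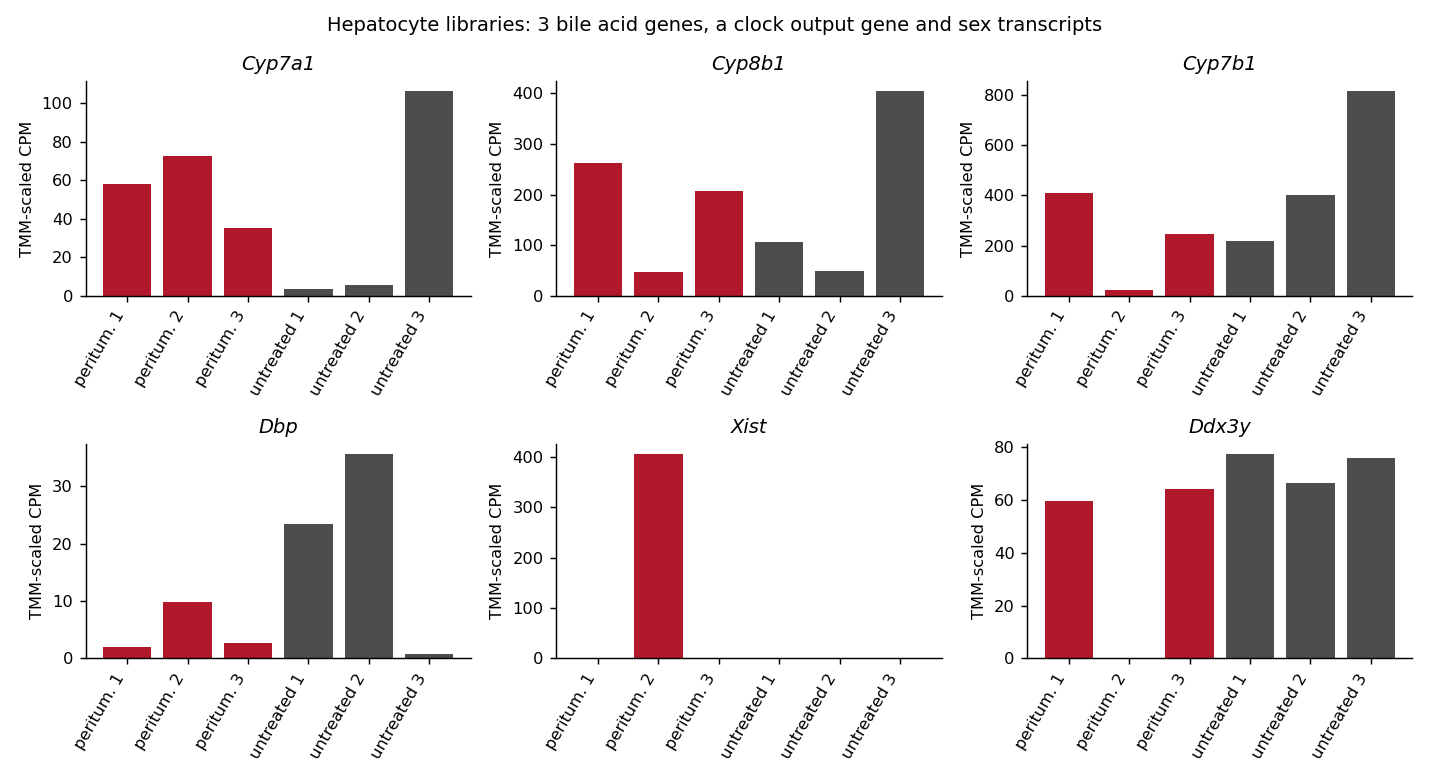
TMM-scaled CPM in the 3 peritumoral and 3 untreated hepatocyte libraries for Cyp7a1, Cyp8b1 and Cyp7b1 and for the clock output gene Dbp, the X-inactivation transcript Xist and the Y-linked Ddx3y. Untreated library 3 has the highest Cyp7a1, Cyp8b1 and Cyp7b1 (106, 404 and 816 CPM) and the lowest Dbp (0.708 CPM), and peritumoral library 2 alone has Xist (405 CPM).

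The clock output gene Dbp, which cycles over the day in liver, varied among the hepatocyte libraries. It had 1.999, 9.83 and 2.77 CPM in peritumoral hepatocytes, against 23.4, 35.6 and 0.708 CPM in untreated hepatocytes. Untreated libraries 1 and 2 thus had the highest Dbp and the lowest Cyp7a1 of the 6, and untreated library 3 the lowest Dbp and the highest Cyp7a1. The peritumoral libraries did not keep this order, as library 2 had both the most Dbp (9.83 CPM) and the most Cyp7a1 (72.7 CPM) of them. Of 17 clock genes none was called higher and 2 were lower in peritumoral hepatocytes, and 15 did not pass. Their sum overlapped, at 482 to 669 RPM in peritumoral and 447 to 665 RPM in untreated hepatocytes. The sources used here give no time of day for the collection, and its part in the Cyp7a1 and Cyp8b1 levels was not tested. In livers Dbp was 15.6 and 8.25 CPM at 24 h and 3.05 and 3.54 CPM at 48 h, against 3.40 and 1.20 CPM in controls. Of the 17 clock genes 2 were higher and 7 lower at 24 h, and 1 was higher and 7 lower at 48 h. Over all genes 21.1% were higher and 20.7% lower at 24 h, and 25.1% higher and 24% lower at 48 h.

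With peritumoral library 2 and untreated library 3 both left out, a choice made after seeing the data, 5 of the 10 genes were higher and 1 lower, where 22.9% of all genes were called higher and 17.6% lower. The higher genes were Cyp7a1 (3.33, adjusted p = 0.0072), Cyp8b1 (1.61, 0.0306), Cyp27a1 (0.78, 0.0218), Slc27a5 (1.07, 0.00847) and Nr0b2 (0.73, 0.0132), and the lower one was Acox2 (-0.79, 0.0182). All 5 higher genes had their highest hepatocyte level in untreated library 3, and Cyp8b1, Slc27a5 and Nr0b2 their lowest in peritumoral library 2. The choice of libraries itself thus favours higher estimates for these genes. Akr1d1 was at 1.84 (adjusted p = 0.0522). The comparison then rests on 2 libraries a group. Without untreated library 3 alone Cyp7a1 was the 1 gene higher, and without peritumoral library 2 alone none was higher or lower.

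**Figure D5:**
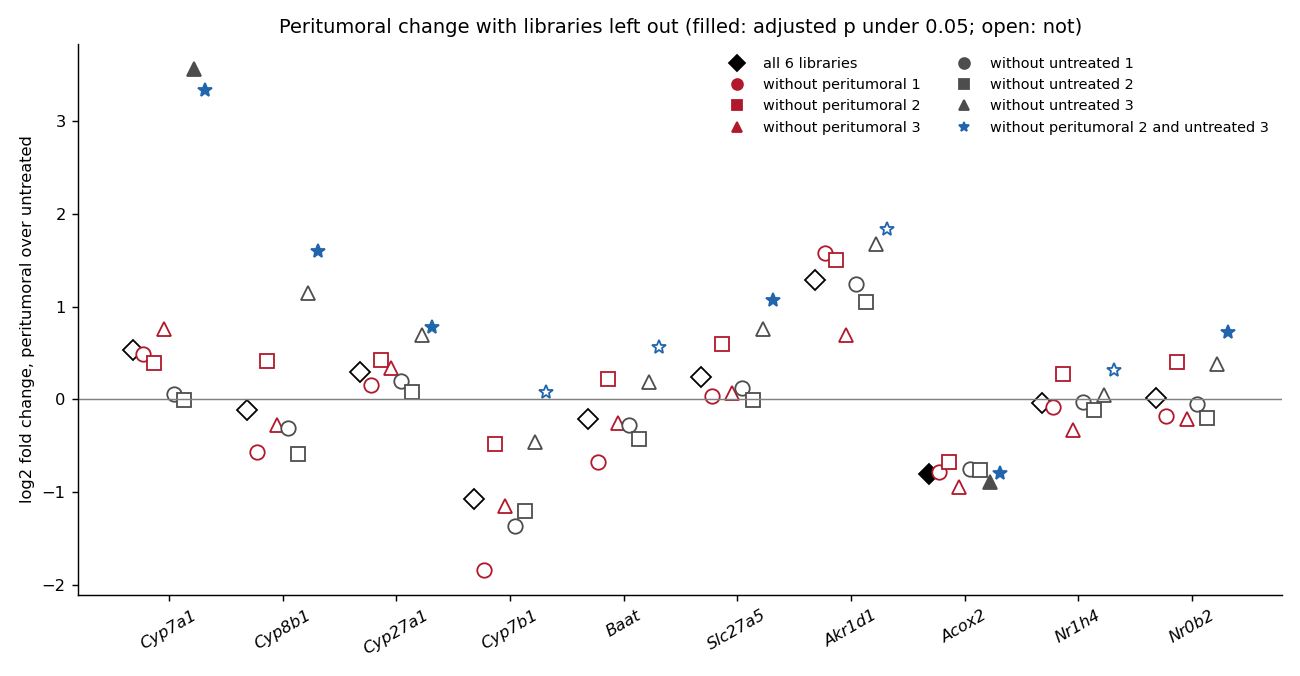
Log2 fold change of the 10 genes in peritumoral over untreated hepatocytes with all 6 libraries, with each library left out, and with peritumoral library 2 and untreated library 3 both left out; filled symbols have an adjusted p under 0.05. Cyp7a1 stands at 3.57 without untreated library 3 and between -0.0011 and 0.76 in the other 5 fits that leave 1 library out, while Acox2 stays between -0.95 and -0.68.

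Of the other bile acid genes, transporters and regulators, few passed in peritumoral hepatocytes. Among 13 further synthesis genes, the peroxisomal thioesterase Acot8 was lower (-0.77, adjusted p = 0.0204). Among 13 transporters tested 3 were lower and none higher. The canalicular exporter Abcc2 (MRP2) had 263, 312 and 329 CPM in peritumoral hepatocytes, against 839, 675 and 640.3 CPM in untreated hepatocytes (log2 fold change -1.25, adjusted p = 0.0127). The sterol exporter subunits Abcg5 (-1.09, adjusted p = 0.016) and Abcg8 (-1.45, adjusted p = 0.0161) were lower too, and Abcg8 had 35.1, 34.0 and 26.3 CPM against 65.5, 67.9 and 128 CPM. The groups of Abcc2, Abcg5 and Abcg8 did not overlap. Abcc2 lost its call without untreated library 1 (adjusted p = 0.0766) or 2 (0.0537), Abcg5 without untreated library 1 (0.055) and Acot8 without either (0.127 and 0.0784). All 4 lost it when scaled to hepatocyte genes (Acot8 -0.33, Abcc2 -0.77, Abcg5 -0.62 and Abcg8 -0.85).

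Among 22 regulators 2 were higher and 1 lower. Hes1, a target of Notch signalling, had 118, 98.3 and 47.1 CPM in peritumoral and 38.6, 17.1 and 19.9 CPM in untreated hepatocytes (log2 fold change 1.80, adjusted p = 0.0262). The tumour mice had received NICD, the active part of Notch, and its part in the Hes1 level was not tested. The vitamin D receptor Vdr, also a receptor of bile acids, had 0.788, 4.81 and 0.867 CPM in peritumoral and 0.116, 0.0581 and 0 CPM in untreated hepatocytes (adjusted p = 0.0213), and was thus near the detection limit. Nr5a2 was lower (-0.52, adjusted p = 0.0376), and at 0.011 when scaled to hepatocyte genes, and it lost its call (adjusted p 0.0631 to 0.131) without any 1 library other than peritumoral library 2. Hes1 lost its call without untreated library 2 (adjusted p = 0.0955) or 3 (0.0783) and without peritumoral library 1 (0.0591) or 2 (0.0524). Vdr lost it without any 1 untreated library (adjusted p 0.0562 to 0.0855). With both libraries that stood apart left out, 2 synthesis genes were higher and 1 lower, 4 transporters higher and 4 lower, and 2 regulators higher and 5 lower. In that fit 22.9% of all genes were called higher and 17.6% lower.

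Markers of other cells were higher in peritumoral hepatocytes. The sum of 20 macrophage markers, 16 of them called higher, was 2301 to 6325 RPM in peritumoral and 366 to 603 RPM in untreated hepatocytes. The sum of 19 stellate cell markers, 16 of them higher, was 1389 to 3809 RPM in peritumoral and 103 to 242 RPM in untreated hepatocytes. Of 17 biliary markers tested 14 were higher, and their sum was 879.6 to 11256 RPM in peritumoral, with the top in library 2, and 71.2 to 89.4 RPM in untreated hepatocytes. No marker of these lists was at 0 in a peritumoral library. Glul, the defining enzyme of pericentral hepatocytes, had 875, 649 and 776 CPM in peritumoral and 65.5, 83.4 and 92.2 CPM in untreated hepatocytes (adjusted p = 0.0032). Of 16 pericentral markers 2 were called higher, none lower, and 14 did not pass. Their sum was 5477 to 8455 RPM in peritumoral and 2357 to 3785 RPM in untreated hepatocytes. Cyp2e1, which did not pass (adjusted p = 0.108), gave 2087 to 3366 RPM of the sum in peritumoral and 677 to 1407 RPM in untreated hepatocytes. The part of these cells and zones in the levels of the bile acid genes was not tested.

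The change in peritumoral hepatocytes differed from the change after TAA for 5 genes at each time. In a fit of all 12 libraries, the difference between the peritumoral and the 24 h log2 fold change was 4.83 ± 1.34 for Cyp8b1 (adjusted p = 0.0318), 2.65 ± 0.44 for Cyp27a1 (0.00771), 2.90 ± 0.64 for Slc27a5 (0.0157), 4.27 ± 0.68 for Akr1d1 (0.00696) and -1.05 ± 0.31 for Acox2 (0.0379). Of all genes tested 8.85% were called with a positive and 11.9% with a negative difference at 24 h. Against the 48 h change the difference was 4.17 ± 0.45 for Cyp27a1 (adjusted p = 0.00169), 2.32 ± 0.66 for Baat (0.0439), 2.96 ± 0.64 for Slc27a5 (0.0208), 3.24 ± 0.66 for Akr1d1 (0.0184) and 2.08 ± 0.58 for Nr0b2 (0.0404). Here 6.4% of all genes were called with a positive and 8.16% with a negative difference. Akr1d1, Cyp27a1 and Slc27a5 passed at both times. Acox2 was the 1 gene of the 10 with a negative difference among those called. For Cyp7a1 the differences were 1.60 (95% interval -1.95 to 5.14) and 1.31 (-2.22 to 4.84). When 1 library was left out, Cyp27a1 kept its call at 48 h in all 12 fits and Akr1d1 at 24 h in all 12, while Cyp8b1 lost it at 24 h in 10 of 12 and Acox2 in 8, and Baat and Nr0b2 at 48 h in 10 of 12 each. Slc27a5 lost it in 3 at 24 h and 6 at 48 h, Cyp27a1 in 1 at 24 h and Akr1d1 in 4 at 48 h.

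Likeness of pattern was measured as the root mean square difference of log2 levels over the 12 libraries, each gene centred within each experiment, against 8270 genes outside the 10. The nearest genes were Gpx1 (0.69), Adck3 (0.70) and Slc10a1 (0.71) for Cyp8b1 and Slc22a30 (0.44), Fabp1 (0.45) and Retsat (0.51) for Cyp7b1. For Nr1h4 they were Pex13, St3gal1 and Naa60 (all 0.14), and for Nr0b2 Serpinc1 (0.15), Fpgs (0.19) and Nit2 (0.19). The root mean square deviation of the gene itself was 1.74 for Cyp8b1, 1.44 for Cyp7b1, 0.345 for Nr1h4 and 0.731 for Nr0b2. A gene that varies little has small distances, so these are not comparable between genes. Among the 10 themselves the nearest pair was Nr0b2 and Baat, at 0.28. Cyp7a1 had a root mean square deviation of 1.36, and its nearest of the other 9, Akr1d1, was at 1.22. These distances describe 12 libraries that share depth and composition within an experiment.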

How the data were processed

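RNA of 12 mouse libraries was sequenced from stranded polyA libraries, per the labels' protocols. The authors deposited a table of raw gene counts and a table of RPM. The submitters' processing notes name STAR, DESeq2 and mm10/GRCm38, with no versions. The RPM values are the deposited counts relative to the library total (100% whole reads at a tolerance of 0.01, over 17311 genes), so they carry no further information on depth, which was 9640845 to 18522324 counts per library. Here the counts were tested with edgeR 4.0.16 in R 4.3.3 (TMM scaling, two-sided quasi-likelihood F tests, adjustment over all genes tested by Benjamini-Hochberg, threshold 0.05), after filterByExpr at 10 counts, 15 in total. The 6 hepatocyte and 6 liver libraries were fitted apart, so CPM levels are not compared between the experiments by a test, and differences between effects came from a fit of all 12. The test was checked on simulated counts with 200 changed genes. Alternatives were other scalings, count filters, DESeq2 1.42.0, limma 3.58.1 on log2(RPM + 0.5) or log2(RPM + 0.1), a replicate block and leaving out libraries. RPKM used exon lengths of GENCODE M21, and promoters came from RefSeq. The 10 genes and all lists were chosen with earlier results of these data known. Genes of the lists are named where they were among the 3 with the smallest p past the threshold in a comparison, the markers Hnf4a, Glul, Cyp2e1, Dbp, Xist and Ddx3y are given beside results, while other named genes are marked. Slc51a, Fgf15 and Gpbar1 were too low to test, and Vdr in livers. The genes nearest in pattern to Cyp7a1 and the name of 1 regulator are not reported here.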

Additional observations from a re-analysis of the deposited data

Results flagged for a closer look

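The log2 fold change between TAA times differed for 3 genes at an adjusted p under 0.05 (edgeR). At 48 h over 24 h it was -1.49 for Cyp27a1, 1.07 for Akr1d1 and -0.81 for Nr0b2.

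The change in peritumoral over untreated hepatocytes differed from the change in TAA over control livers by the test of the difference itself. Against 24 h the difference in log2 fold change was 4.83 for Cyp8b1, 2.65 for Cyp27a1, 2.90 for Slc27a5, 4.27 for Akr1d1 and -1.05 for Acox2. Against 48 h it was 4.17 for Cyp27a1, 2.32 for Baat, 2.96 for Slc27a5, 3.24 for Akr1d1 and 2.08 for Nr0b2. Mouse stock, preparation as the series design describes it and, apart from peritumoral library 2, sex transcripts differ between the experiments together with the injury. They cannot be told apart from it.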

How the results depend on the processing

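Cyp8b1, Cyp27a1, Cyp7b1, Akr1d1, Slc27a5, Baat and Nr0b2 stayed lower than controls at both TAA times under every scaling and left-out library, but in the fit of all 12 libraries Cyp7b1 lost its call at 24 h (adjusted p = 0.0752) and 48 h (0.113) and Nr0b2 at 24 h (0.0837). Groups of 2 or 3 libraries limit all calls, and no cause of a change listed here was tested. In peritumoral over untreated hepatocytes no gene (0) was called lower, against 1, under upper-quartile factors, no factors, hepatocyte scaling, no count filter, a minimum count of 50, the replicate block and limma. Called higher were 1 under no factors, hepatocyte scaling, DESeq2, the replicate block, all 12 libraries in 1 fit and limma, and 5 with both libraries that stood apart left out. Cyp8b1 turned positive, at 0.015 (upper-quartile), 0.16 (no factors), 0.39 (hepatocyte scaling), 0.082 (replicate block), 0.32 and 0.33 (limma with 0.5 and 0.1 added) and 1.61 (both libraries left out). Baat was at 0.0093, 0.17 and 0.57 under no factors, hepatocyte scaling and both left out, and Cyp7b1 at 0.077 with both left out. Nr1h4 was at 0.081 (upper-quartile), 0.16 (no factors), 0.34 (hepatocyte scaling), 0.039 (minimum count of 50), 0.13 (limma, either value added) and 0.32 (both left out). Nr0b2 was at -0.043 under the replicate block.

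At 24 h after TAA 1 gene was called higher under no factors, hepatocyte scaling and limma, and Nr1h4 was at 0.16 under hepatocyte scaling. In the fit of all 12 libraries 5 were called lower at 24 h, where 1165 of all 14615 genes were called lower and 1969 higher. At 48 h 2 were called higher under hepatocyte scaling and 1 under limma. Acox2 was then at 0.44 (no factors), 0.94 (hepatocyte scaling) and 0.44 (limma), Nr1h4 at 0.14, 0.64 and 0.14, and Cyp7a1 at 0.37 (hepatocyte scaling), 0.051 and 0.054 (limma). For 48 h over 24 h the genes called higher were 2 under hepatocyte scaling and with no count filter and 0 under the replicate block and in the fit of 12, and those called lower 1 under hepatocyte scaling and 0 in the fit of 12. Slc27a5 was at 0.014 (RLE), 0.19 (no factors), 0.37 (hepatocyte scaling), 0.0073 (minimum count of 50), 0.014 (DESeq2) and 0.16 (limma). For peritumoral minus TAA effects 10 genes at 24 h and 9 at 48 h were called with both libraries left out, where over all 14077 genes 2812 were called positive and 2849 negative at 24 h and 2616 and 2605 at 48 h, against 1294 and 1737, and 935 and 1192, of 14615 with them. At 48 h 3 were called under hepatocyte scaling, where Nr1h4 was at -0.30, and at -0.017 with limma.

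When 1 library was left out, the peritumoral comparison called 0 to 1 of the 10 genes higher and 0 to 1 lower. Over all genes these fits called 7.46% to 18.7% higher and 0.372% to 9.55% lower, against 18.7% and 9.85% with all libraries. Baat ran from -0.67 to 0.22, Cyp7a1 from -0.0011 to 3.57 and Cyp8b1 from -0.59 to 1.15. Nr0b2 ran from -0.21 to 0.41, Nr1h4 from -0.33 to 0.27 and Slc27a5 from -0.0074 to 0.76. At 24 h 7 to 8 genes were lower, with Acox2 from -0.032 to 0.30, and at 48 h 7 to 8, with Cyp7a1 from -1.40 to 0.12. For 48 h over 24 h, a fit without 1 TAA library has 1 library in a group, and calls over all genes became fewer in it. Over all left-out fits of that comparison Cyp7a1 ran from -0.12 to 0.86, Nr1h4 from -0.059 to 0.29 and Slc27a5 from -0.34 to 0.25. The number of the 10 genes called by the differences of effects also varied, and a fit without 1 liver library has 1 library in a group. Without 1 hepatocyte library, 4.26% to 12.7% of all genes were called positive and 5.9% to 17.0% negative at 24 h. At 48 h the shares were 1.86% to 10.9% and 2.31% to 14.6%.

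Replicate numbers did not pair the libraries: deviations of same-numbered libraries correlated at -0.223, 0.165 and 0.105 in hepatocytes and at 0.0227 to 0.0266 in livers. With the replicate block Akr1d1 was called in hepatocytes (1.22, adjusted p = 0.0281) and Acox2 was not (-0.81, adjusted p = 0.0782). Over all genes the peritumoral comparison called 1324 lower with TMM and 623 under upper-quartile factors, 181 under no factors, 57 under hepatocyte scaling, 778 at a minimum count of 50 and 695 under the replicate block. The TAA comparisons called 2844 higher and 2790 lower at 24 h and 3382 higher and 3238 lower at 48 h with TMM, and 6132 and 1222, and 7645 and 975, under no factors.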
